A study of Homo sapiens with 2 samples.

Results

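DNA glycosylases open base excision repair, the route by which cells replace single damaged or wrong bases in DNA. Each glycosylase recognises a set of altered bases and cuts the bond between the base and its sugar, which leaves an abasic site. An endonuclease then nicks the strand, a polymerase fills the gap and a ligase seals it. The genes were NTHL1, NEIL1, NEIL2, NEIL3 and OGG1, whose enzymes act on oxidised bases, UNG and SMUG1, which remove uracil, TDG and MBD4, which remove thymine or uracil opposite guanine, and MUTYH, which removes adenine opposite oxidised guanine. They were chosen by name, and a probe set, which is a group of short oligonucleotides that reads 1 transcript, was taken only where the platform annotation pairs it with 1 gene. By this rule 9 of the 10 genes were measured, with 17 of the 41091 single-gene probe sets, among 19775 named genes in all. NEIL1 was not measured, since both of its probe sets (2) are also paired with the microRNA gene MIR631.

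Total RNA was taken from PC-3 cells, a human prostate cancer line that grows without androgen, after 24 h with riccardin D (RD), a macrocyclic bisbibenzyl from a liverwort, and from control PC-3 cells. The dose was 10 µmol/L by the heading of the study's supplementary list, as the sample labels state none. The treatment protocol gives DMSO vehicle for the control, whereas its source name describes cells that were not treated. Each condition was measured on 1 Affymetrix HG-U133 Plus 2.0 array.
The deposited values are MAS5 signals on a linear scale, and both arrays had been brought to a like mean (495.8 and 495.9 without the top and bottom 2% of probe sets). Of the markers measured, epithelial KRT18 read 10224.2 and 15416.6 and KRT8 113.8 and 159.3 on the control and RD arrays. EPCAM and CDH1, also epithelial, stayed under 66.9, the median of all signals, which serves here as the floor. Leukocyte markers stayed under the floor on both arrays (0 of 2 genes by the brightest probe set), while 1 of 2 endothelial and 2 of 3 fibroblast markers reached it. Endothelial PECAM1 and fibroblast DCN did so by their brightest probe set only. Summed over all measured markers, under the floor or not, the brightest signals on the control and RD arrays were 130.1 and 76.4 (endothelial), and 549.4 and 482.4 (fibroblast). Of the androgen-dependent prostate markers, KLK3 reached the floor only by its brightest probe set, with 131.4 on the control and 230.6 on the RD array. Its other probe sets stayed under the floor, with 30.9 and 13.4, and 14.9 and 8.7. KLK2 did not reach the floor. The part of other cell types in the results was not tested.

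With 1 array per condition no p-value can be given, and a difference between the cultures cannot be told apart from RD. In bulk RNA, fewer cells with a transcript and less of it per cell also cannot be told apart. A gene was called where the signals of its brightest probe set were 2-fold or more apart and the larger one was not under the floor. The only error that these arrays give is how far the log2 differences of probe sets of 1 gene lay from each other. Its SD was 0.76 over 18518 probe sets that reached the floor and 0.34 over 8576 probe sets that reached 377.4, the 75th percentile of all signals. All 9 genes reached the floor on both arrays by their brightest probe set, and 8 of them also reached the 75th percentile on at least 1 array, the exception being NEIL2.

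The glycosylases did not move as a block. Of the 9 genes, 3 were called lower (NTHL1, NEIL3 and UNG), 1 was called higher (TDG), and 5 differed less than 2-fold. By sign, 6 had a lower and 3 a higher signal in RD-treated cells. Among all 12818 named genes at the floor, 13.3% were called lower and 12.1% higher, and among the 8094 genes that reached the 75th percentile these shares were 10.9% and 9.91%. The median log2 difference (RD minus control) of the 9 genes was -0.63, against -0.0022 over all genes at the floor. NTHL1, OGG1, UNG and MBD4 stand in the list of changed genes that the study drew from these same arrays, so their values are not independent evidence of a direction.

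**Figure D1:**
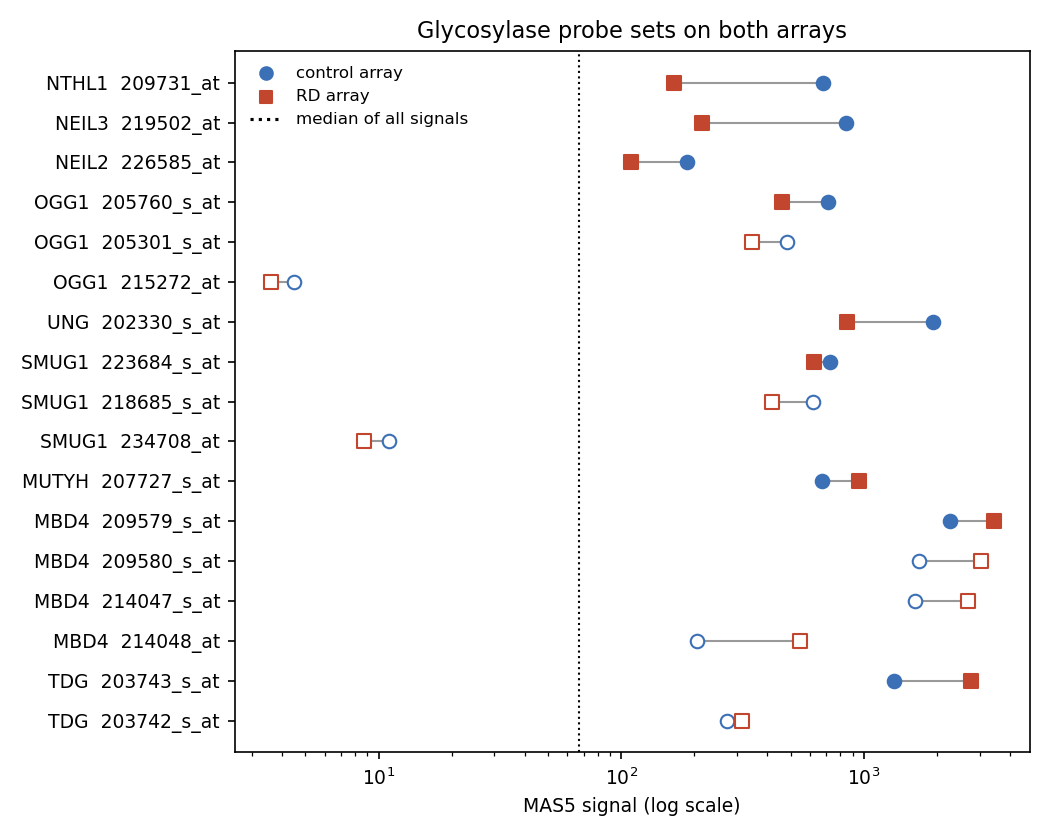
MAS5 signal (horizontal, log scale) of each of the 17 glycosylase probe sets in control cells (circles) and in RD-treated cells (squares). Each gene's brightest probe set is filled, further probe sets are open, and the floor of 66.9 is dotted. Squares lie to the left of circles for NTHL1, NEIL3, NEIL2, OGG1, UNG and SMUG1, and to the right for MUTYH, MBD4 and TDG.

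The stretches of DNA before the transcription starts of the 4 called genes are shown for comparison, since 3 of these genes were lower and 1 was higher. Each is the 250 bases before a RefSeq start on GRCh38.p14, written in the direction of transcription. Capitals mark, on either strand, the E2F letters TTTCCCGC, TTTCGCGC, TTTGCCGC or TTTGGCGC, the cell cycle homology letters TTTGAA, the CCAAT box, the E-box CACGTG, and TGATGNAA, which ATF4 and C/EBP factors bind. The motifs were picked with the sequences in view, and a match is a description of letters, not a bound site. RefSeq starts were found for 8 of the 10 genes, in 13 windows.
NTHL1, chr16:2047835-2048084, minus strand: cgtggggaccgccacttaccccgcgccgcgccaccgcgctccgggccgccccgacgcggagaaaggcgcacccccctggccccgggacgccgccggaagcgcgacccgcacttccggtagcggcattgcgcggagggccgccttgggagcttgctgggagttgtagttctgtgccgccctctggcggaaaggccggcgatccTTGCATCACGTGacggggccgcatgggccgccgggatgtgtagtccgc
NEIL3, chr4:177309624-177309873, plus strand: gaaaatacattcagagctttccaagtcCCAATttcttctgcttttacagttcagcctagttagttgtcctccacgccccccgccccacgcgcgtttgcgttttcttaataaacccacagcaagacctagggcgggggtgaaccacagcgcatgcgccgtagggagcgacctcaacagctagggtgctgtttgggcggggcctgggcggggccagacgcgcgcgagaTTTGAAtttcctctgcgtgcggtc
UNG, chr12:109097922-109098171, plus strand, the second of its starts: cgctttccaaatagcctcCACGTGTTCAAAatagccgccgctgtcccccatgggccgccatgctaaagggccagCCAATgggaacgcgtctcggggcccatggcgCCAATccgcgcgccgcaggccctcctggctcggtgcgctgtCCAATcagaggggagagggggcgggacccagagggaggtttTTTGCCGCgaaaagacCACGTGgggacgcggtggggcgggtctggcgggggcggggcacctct
TDG, chr12:103965622-103965871, plus strand: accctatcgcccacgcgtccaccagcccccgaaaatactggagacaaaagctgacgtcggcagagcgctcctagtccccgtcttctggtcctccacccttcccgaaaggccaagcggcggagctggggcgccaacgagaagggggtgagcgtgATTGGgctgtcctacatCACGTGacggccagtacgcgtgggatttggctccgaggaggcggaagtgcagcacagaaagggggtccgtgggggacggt

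Of these windows, that of NEIL3 holds TTTGAA at 24 to 19 bases before the start, and a CCAAT box farther out. The second UNG window holds TTTGCCGC at 63 to 56 bases before the start, 3 CCAAT boxes, 2 E-boxes and TTTGAA on the other strand directly beside the outer E-box. None of the marked motifs is in the window of the first UNG start, and 1 probe set reads the gene, so its value is not split by start. NTHL1 and TDG each hold an E-box, at 42 to 37 and 80 to 75 bases before the start. In NTHL1 the letters TGATGNAA on the other strand overlap that E-box. Over 35116 windows of the same length, the E2F letters were in 2.79%, TTTGAA in 13.3%, a CCAAT box in 32.0%, the E-box in 6.34% and TGATGNAA in 3.14%. The GC box GGGCGG, searched for too but not marked, was in 42.6%. It was in a window of every glycosylase with a RefSeq start except TDG, and in both UNG windows. Of the genes that were not called, MBD4 and OGG1 each hold 2 CCAAT boxes and none of the other 4 marked motifs. MUTYH holds TTTGAA in 1 of its 3 windows and a CCAAT box in each of the other 2. Whether any motif bears on the signals was not tested.

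In what follows a pair of signals gives control first and RD second. Among the enzymes for oxidised bases, all 4 that were measured had lower signals in RD-treated cells, as had 6425 of the 12818 genes at the floor. NTHL1, a bifunctional glycosylase that removes oxidised pyrimidines and also nicks the strand, read 681.9 in control and 164.8 in RD-treated cells. This is 4.14-fold lower (log2 difference -2.05), and 438 of the 12818 genes (3.42%) were as low. NEIL3, which favours single-stranded DNA and also unhooks some interstrand crosslinks, read 847.8 and 215.4. It was 3.94-fold lower (log2 difference -1.98), and 471 genes (3.67%) were as low.
Both differences were larger than the probe set scatter of 0.34 and of 0.76, but each rests on 1 probe set. NEIL2, a relative of NEIL3 that acts on oxidised bases in bubbles and transcribed DNA, read 186.3 and 110.1, at 0.591 of control. Its log2 difference of -0.76 was no larger than the scatter at the floor, which is the scatter that applies to its dimmer signal.
OGG1, the main glycosylase for oxidised guanine paired with cytosine, read 712.8 in control and 460.7 in RD-treated cells by its brightest probe set, at 0.646 of control. A further probe set read 482.8 and 345.7, at 0.716 of control, and the third was under the floor on both arrays, with 4.5 and 3.6. OGG1 was lower by both of its probe sets above the floor, and neither reached 2-fold. NTHL1 was lower than OGG1 by 1.42 on the log2 scale in their differences, set beside 0.48, the scatter of a difference between 2 bright probe sets, and 1.07 at the floor. For NEIL3 against NEIL2 the gap was -1.22, set beside 1.07 at the floor.

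The uracil glycosylases differed in size. UNG, which removes uracil from DNA in the nucleus and in mitochondria and acts at replication forks, read 1930.6 in control and 854.7 in RD-treated cells. It was 2.26-fold lower (log2 difference -1.18), as low as 1320 genes (10.3%), again by 1 probe set. SMUG1, which removes uracil and some oxidised pyrimidines, read 725 and 621.2 by its brightest probe set, at 0.857 of control. Its other probe set above the floor read 617.9 and 419.2, at 0.678 of control, and its dim one read 11 and 8.7. Both SMUG1 probe sets above the floor were lower, short of 2-fold. The gap between the log2 differences of UNG and SMUG1 was -0.95, larger than 0.48, the scatter of such a gap between bright probe sets, and smaller than 1.07, that at the floor.

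TDG, MBD4 and MUTYH were higher. TDG, a glycosylase that removes thymine from G:T mismatches and also the oxidised forms of methylated cytosine, read 1328 in control and 2754.7 in RD-treated cells. It was 2.07-fold higher (log2 difference 1.05), and 1427 genes (11.1%) were as high. Its other probe set read 272.3 and 313.9, only 1.15-fold higher. The median of both was 0.63 on the log2 scale, below 2-fold, so the call of TDG rests on its brightest probe set. Both of its probe sets carry the suffix for sequence shared by several transcripts, and RefSeq lists a TDG pseudogene, TDGP1. Whether that copy adds to the signal was not tested.
MBD4, which binds methylated CpG and removes thymine or uracil opposite guanine there, was higher by each of its 4 probe sets. The brightest read 2276.7 in control and 3428.1 in RD-treated cells, 1.51-fold higher. Further probe sets read 1690.8 and 3033.4, and 1620 and 2697.5, which is 1.79-fold and 1.67-fold higher. The fourth read 205.2 and 544.6, 2.65-fold higher, and it alone passed 2-fold. The log2 differences of MBD4 thus ran from 0.59 to 1.41, a range of 0.82. MUTYH, which takes out adenine that was paired with oxidised guanine, read 673 and 960, 1.43-fold higher by its only probe set. Its log2 difference of 0.51 was larger than 0.34 and smaller than 0.76.
For single genes picked from different classes, the log2 difference of TDG by its brightest probe set exceeded that of UNG by 2.23. TDG was the highest glycosylase and UNG the lower of the uracil glycosylases, so this is not a gap between classes. The scatter of such a gap, 0.48 between bright probe sets and 1.07 at the floor, takes no account of that choice. By its other probe set TDG had a log2 difference of only 0.21. MUTYH exceeded OGG1, its partner in the handling of oxidised guanine, by 1.14 on the same scale, set beside the same 0.48 and 1.07.

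**Figure D2:**
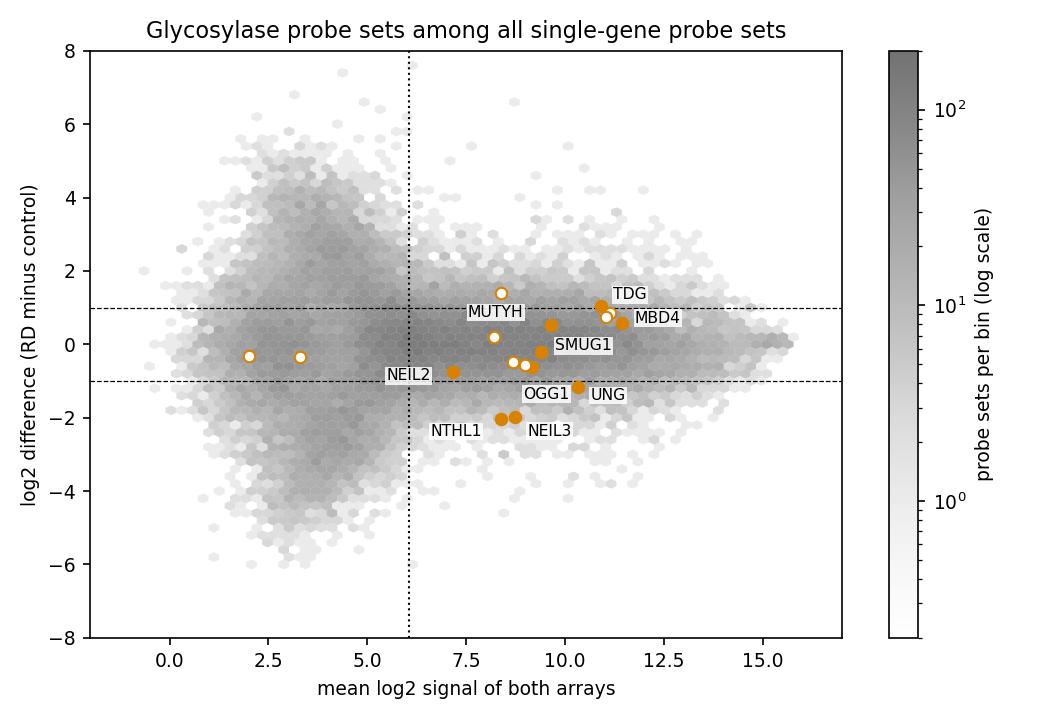
Log2 difference in signal (RD minus control, vertical) against the mean log2 signal of both arrays (horizontal) for all single-gene probe sets (grey, probe sets per bin on a log scale) and for the glycosylases (orange, filled for the brightest probe set of a gene, open for the others). The dotted line is the floor of 66.9 and dashed lines mark 2-fold. NTHL1 and NEIL3 lie in the lower part of the cloud, well below the 2-fold line, and 2 open circles, of OGG1 and SMUG1, lie left of the floor, where the cloud is widest.

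Among the enzymes that act after the glycosylases, the called genes were in the long-patch route and in nick sensing. Of 15 downstream genes measured, 14 reached the floor, 4 were called lower and none higher, beside 13.3% lower and 12.1% higher over all genes at the floor. Their median log2 difference was -0.42, against -0.0022 over all genes, and it was -0.48 by the median over probe sets, as was that of the glycosylases. The abasic site endonuclease APEX1 read 12253.4 and 11349.2, at 0.926 of control. In the short-patch route, which fills a single base, DNA polymerase beta (POLB) was at 0.984 of control. LIG3 was at 0.842 and its scaffold XRCC1 at 0.699 of control. None of them passed 2-fold by the brightest probe set. Further LIG3 probe sets above the floor lay on both sides, at 0.781, 0.796, 1.35 and 1.52 of control.
The called genes were the 3 long-patch genes, whose products also serve DNA replication, and PARP1, which senses nicks. All but FEN1 were read by 1 probe set each. LIG1, a DNA ligase, read 798.7 and 131.2, 6.09-fold lower. PCNA, the sliding clamp, read 15458.4 and 3956.5, 3.91-fold lower. FEN1, the flap endonuclease, read 10228.7 and 3304.2, 3.10-fold lower, and its other probe set was 4.03-fold lower.
PARP1 read 2656.1 and 1065.1, 2.49-fold lower, whereas PARP2 was at 1.10 and PARG, which takes the polymer down again, at 1.14 of control, the high end of this list. Among the end-processing genes, TDP1 was at 0.545 of control by its brightest probe set and at least 3.87-fold lower by another, which read 259.1 and then 60.5, a value below the floor. For the nuclease APEX2 the brightest probe set was at 0.763 of control, and the other read 351.3 and 157.5, at 0.448. APLF stayed under the floor. MPG, the glycosylase for alkylated bases, read 1640 and 1288.5, at 0.786 of control, not past 2-fold.

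Glycosylase substrates also arise from the nucleotide pool. Of 5 genes that cleanse this pool, all had lower signals, 2 were called lower and none higher, beside 13.3% and 12.1% of all genes at the floor. Their median log2 difference was -0.84, against -0.0022 over all genes. NUDT1 (MTH1), which hydrolyses oxidised purine nucleotides before they enter DNA, read 2030.9 in control and 170 in RD-treated cells. At 0.0837 of control (log2 difference -3.58), it was lower than every glycosylase measured, and 83 of the 12818 genes (0.648%) were as low. The NUDT1 value rests on 1 probe set. DUT, the dUTPase that keeps uracil out of DNA, read 15569.8 and 6526.2, 2.39-fold lower, and its other probe sets were at 0.334 and 0.133 of control.
For oxidised guanine, NUDT1, OGG1 and MUTYH thus stood at 0.0837, 0.646 and 1.43 of control. For uracil, DUT, UNG and SMUG1 stood at 0.419, 0.443 and 0.857. ITPA, which clears deaminated purine nucleotides, was at 0.557, NUDT5 at 0.604 and SAMHD1, a dNTP hydrolase, at 0.804 of control by the brightest probe set. Further SAMHD1 probe sets above the floor were at 0.5448, 0.5965, 0.8594 and 0.8841 of control. The TET dioxygenases oxidise methylated cytosine to forms that TDG removes. By the brightest probe set TET2 was at 0.976 and TET3 at 1.19 of control, while TET1 stayed under the floor. Another TET3 probe set read 28.9, under the floor, and then 68.2, just above it.
As a measure of replication genes on these arrays, all 6 subunits of the MCM2-7 helicase were called lower, with log2 differences from -2.82 (MCM2) to -1.30 (MCM6) and a median of -1.89. NTHL1 (-2.05) and NEIL3 (-1.98) lay within this range, UNG (-1.18) lay just above it, and the other 6 glycosylases lay above UNG. The part of cycling cells in these values was not tested.
CCNO, a cyclin gene once named as a uracil glycosylase (UDG2), was singled out after its value was seen, because the study lists it under base excision repair. It read 437.3 and 1176.3, 2.69-fold higher, and is not counted among the glycosylases here.

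**Figure D3:**
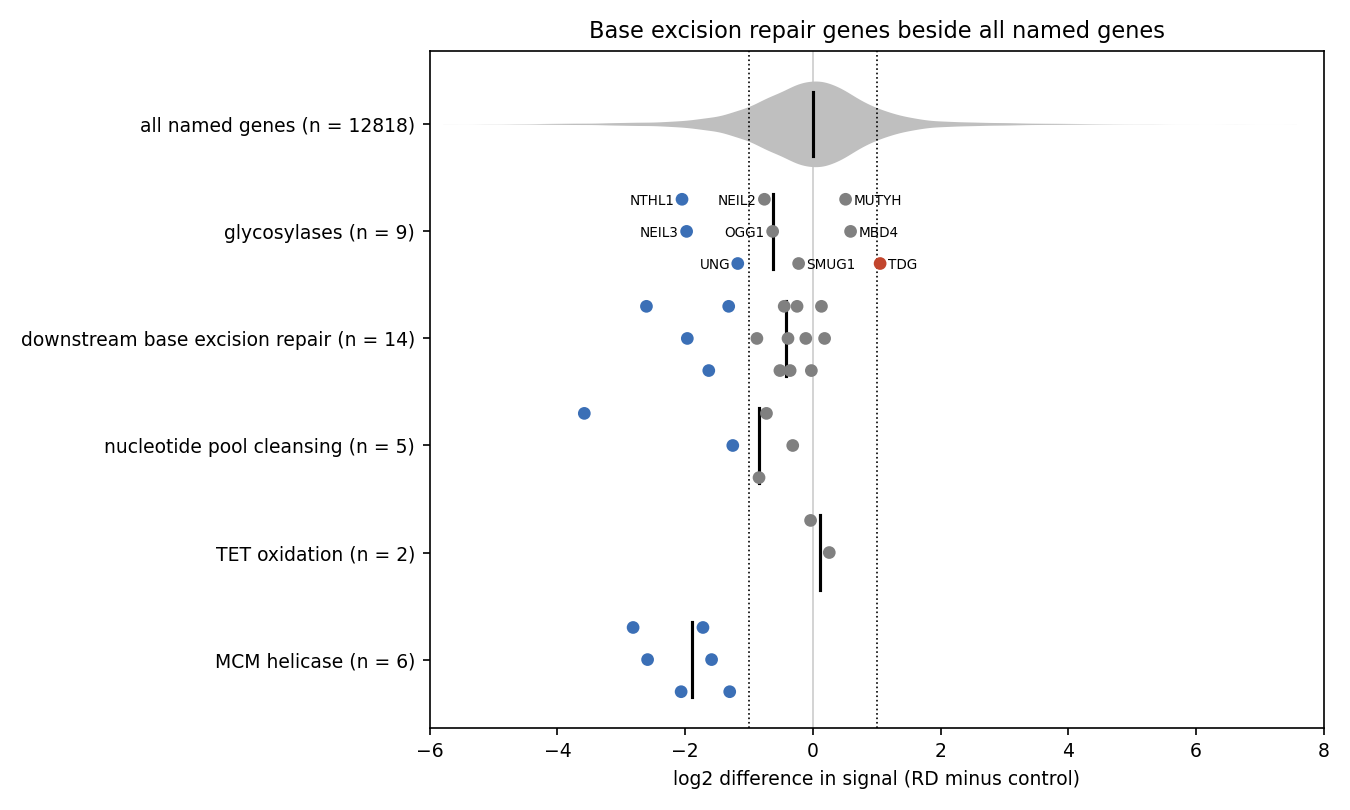
Log2 difference in signal (RD minus control, horizontal) of the brightest probe set of each gene at the floor, by list, under the outline of all 12818 named genes. Vertical bars are medians, dotted lines mark 2-fold, blue points are called lower, the red point (TDG) higher and grey points neither. The glycosylases spread from -2.05 (NTHL1) to 1.05 (TDG), whereas all 6 MCM genes lie left of -1.

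Other ways of treating the signals left the order of the glycosylases largely in place. Over 8 alternatives in scaling, offset, floor and choice of probe set, NTHL1 ranged from -2.10 to -1.94, NEIL3 from -2.02 to -1.90 and, over the 7 that gave it a value, UNG from -1.22 to -1.16 on the log2 scale. OGG1 ranged from -0.67 to -0.48, NEIL2 from -0.81 to -0.68 and SMUG1 from -0.34 to -0.22. No glycosylase changed sign. The floor settings, however, could drop a gene but not move its value, since both signals of each brightest probe set were above the floor. For a gene with 1 probe set, the choice of probe set could not move it either, which leaves scaling and offset. TDG ranged from 0.63 to 1.05 and MBD4 from 0.55 to 1.41, and these are the genes whose side of the 2-fold line depended on the probe set.

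**Figure D4:**
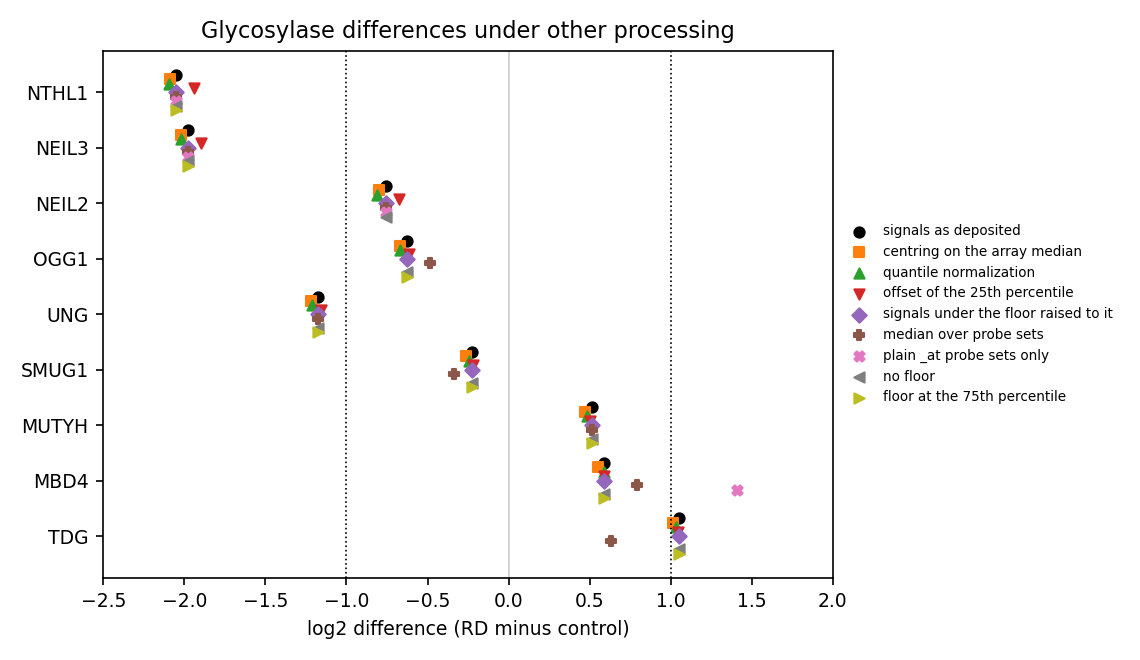
Log2 difference (RD minus control, horizontal) of each glycosylase as deposited (black) and under each of 8 other treatments of the signals (coloured symbols). Dotted lines mark 2-fold. The symbols of NTHL1, NEIL3 and UNG stay left of -1, whereas TDG (0.63 by the median over its probe sets) and MBD4 (1.41 by its probe set without a shared-sequence suffix) cross the line at 1.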

How the data were processed

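RNA from 1 control and 1 RD culture of PC-3 cells had been hybridised to Affymetrix HG-U133 Plus 2.0 arrays. The values that the authors deposited are linear intensities, MAS5 signals by the submitters' processing notes, with version and scaling target not given in the sources used here. MAS5 subtracts mismatch signals, so ratios of dim probe sets are noisy, and precision is limited by how few arrays there are. RD was compared with control by the log2 difference of the signals as they stand, without offset, further scaling or test. Probe sets were named through the platform annotation, with the brightest by mean log2 signal standing for its gene, and those paired with several genes (1801) were left out. The symbols of all 52 listed genes with a value matched the RefSeq table of GRCh38.p14. Some listed genes had no single-gene probe set among the values used and are not reported here.
The rule for named genes took all 10 glycosylases and, of the other lists, every called gene and up to 2 at each end; further list members named were chosen after their values were seen, for their place in the pathway. The members and lists were chosen with earlier results of these data known. As alternatives, the arrays were quantile normalized or centred on their medians, 17.1 (the 25th percentile) was added to all signals, signals under the floor were raised to it, the median over probe sets or only those without a shared-sequence suffix were used, the floor was dropped or put at the 75th percentile, and the threshold was set to 1.5-fold or 3-fold. The scripts were tested on simulated data. Promoter windows come from RefSeq. The work was done in Python 3.11.15 with matplotlib 3.10.9, pandas 2.3.3 and numpy 2.4.6.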

Additional observations from a re-analysis of the deposited data

How the results depend on the processing

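The count of 3 lower glycosylases was 5 at 1.5-fold, 2 at 3-fold, where UNG was not called, and 2 with only probe sets that carry no shared-sequence suffix, where UNG had no value. The count of 1 higher was 2 at 1.5-fold and 0 at 3-fold and also 0 with the median over probe sets. The shares of all genes at the floor, 13.3% lower and 12.1% higher, hold for 2-fold only. No such shares were drawn up for 1.5-fold or 3-fold, so the counts there are not read against all genes. With only the probe sets that carry no shared-sequence suffix, 4 glycosylases remained and their median was -1.37, as fewer genes entered it. Under the other alternatives the median of the glycosylases, and under all of them the counts and the median of the downstream repair genes, moved by less than 1.5 times in count or by less than the probe set scatter of 0.34. Of 66 values of single glycosylases under the alternatives, 64 moved by less than 0.34, TDG and MBD4 gave the 2 exceptions, and 0 changed sign. The floor settings could not move any of these values, nor could the choice of probe set for genes with 1 probe set. The tally is therefore partly fixed in advance and is not a measure of stability. No paired analysis was possible because each condition has 1 array, and for the same reason no array could be left out. Signals near the floor limit what can be read of NEIL2, and signals under it that of the dim OGG1 and SMUG1 probe sets.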
